A study of Homo sapiens with 10 samples.

Results

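The ZNF genes are the largest family of human genes for transcription factors of the C2H2 zinc finger type, and those that RPE-1 cells expressed well were followed through a short treatment with sulforaphane (SFN). Genes were chosen by symbol (ZNF, a number and at most 1 letter) and by a mean of 5 CPM or more (counts divided by the library total and scaled to 1000000) over the 5 DMSO libraries. The counts held 504 ZNF genes among 28380, and 316 of them met this limit, while 188 did not. RPE-1 is an established line of human retinal pigment epithelial cells immortalized with telomerase. Both groups were RPE-1 cells in complete medium, 5 replicates of 50000 cells with 25 µM SFN for 4 h and 5 with its solvent DMSO for the same time, and no other allele, agent or cell type is named for either group. SFN is an isothiocyanate from cruciferous vegetables, and the comparison asks how RNA levels differ after a short exposure to it.

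Most ZNF proteins carry a row of C2H2 zinc fingers that reads DNA, and many begin with a KRAB box, a short domain that binds the co-repressor TRIM28. TRIM28 in turn brings SETDB1, which methylates histone H3 on lysine 9, so that KRAB proteins are best known for silencing transposable elements and for guarding imprinted genes. KRAB genes arose by repeated local duplication, and large clusters of them lie on chromosome 19. Other ZNF proteins lack the KRAB box and act in splicing, in translation or as conventional activators and repressors.

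The library totals ranged from 15689294 to 20666692 counts in DMSO and from 12375860 to 17308706 in SFN, and the counts of the chosen genes ranged from 3 to 4468 in a library. DMSO replicate 1 stood apart. Its mean Spearman correlation with the other DMSO libraries was 0.935, against 0.979 to 0.982 for those and its slope of log2 CPM on log2 transcript length, relative to the mean of all libraries, was -0.271, where the other DMSO libraries had 0.0872 to 0.148 and those of SFN -0.183 to 0.109. It was the lowest DMSO library for 184 of the 316 ZNF genes and the highest for 90. Values without it are therefore given for the whole set and for some of the lists, groups and genes that it moved. Where none is given, the value may also have moved, and the part this library played was not tested. Of 10 markers of retinal pigment epithelium, 9 were in the file and 5 were under 1 CPM in every library, RPE65, RLBP1, TYRP1, SERPINF1 and TTR, whereas MITF (50.8 CPM in DMSO and 23.4 in SFN), OTX2 (14.0 and 9.01 CPM), BEST1 (18.8 and 42.4 CPM, not significant) and PMEL (near 1 CPM in both groups) were present. KRT8, KRT18 and VIM, which an epithelial line in culture makes, were well expressed. TERT, the telomerase gene chosen as a further marker of the line, was low, at 1.45 CPM in DMSO and 0.264 CPM in SFN. Its log2 fold change was -2.46 (adjusted p = 0.00044 in the quasi-likelihood test of edgeR). The summed CPM of 4 markers of blood, endothelial and other epithelial cells reached at most 0.623 in DMSO and 0.417 in SFN.

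At the limit of choice, ZNF671 (5.03 CPM in DMSO), ZNF470 (5.07 CPM) and ZNF81 (5.15 CPM) were just inside, and ZNF850 (4.99928 CPM), ZNF641 (4.92 CPM) and ZNF821 (4.81 CPM) just outside. The mean CPM of these genes in SFN was 3.82, 2.19 and 5.10 for the 3 inside and 3.36, 1.45 and 2.66 for the 3 outside. With all libraries, ZNF470 (adjusted p = 0.098 by edgeR) and ZNF850 (adjusted p = 0.070) were not significant. Without DMSO replicate 1 both were lower, with log2 fold changes of -1.25 (adjusted p = 0.0085) and -0.57 (adjusted p = 0.0091).

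Many more of these ZNF genes were lower in SFN than were higher. All 316 passed the filter on low counts. In the quasi-likelihood test of edgeR, with p-values adjusted after Benjamini and Hochberg over 13378 genes, 117 (37%) were significantly lower in SFN, 17 (5.38%) were significantly higher and 182 were not significant. Among all genes tested, 13.9% were lower and 9.07% higher, and among the 10188 genes that also had 5 CPM or more in DMSO, 14.8% were lower and 8.57% higher. The fall exceeded 2-fold for 54 of the 316 ZNF genes and the rise exceeded 2-fold for 5. The same counts were 770 and 393 among the 13378 genes tested. Among the 10188 genes with 5 CPM or more in DMSO they were 503 and 113. Fitted log2 fold changes (SFN minus DMSO) ranged from -2.34 to 2.15 with a median of -0.34, against -0.028 for all genes tested, and 219 of the 316 were negative. In bulk RNA, fewer cells of a type and less RNA per cell cannot be told apart. Nothing in the labels says that replicates were separate cultures, so p-values measure the spread between these samples, which may be technical.

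**Figure D1:**
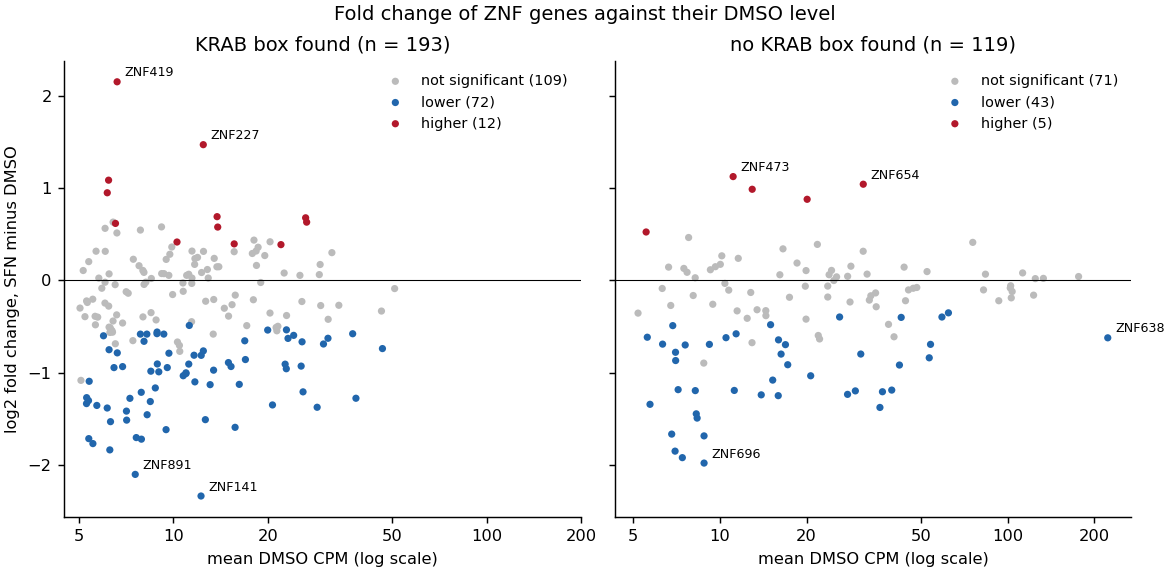
Each point is a ZNF gene, with its mean CPM in DMSO on a log axis against its fitted log2 fold change (SFN minus DMSO), for 193 genes with a KRAB box found in the protein (left) and 119 without (right). Of the genes with a KRAB box, 72 were significantly lower (blue) and 12 higher (red), and of those without, 43 were lower and 5 higher.

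All 5 SFN values were below all 5 DMSO values for 90 ZNF genes and above them for 16, whereas 11.1% of all genes tested were below in this sense and 8.78% above. These are the values that entered the fit and, for DMSO, the choice of genes, so the counts add no separate support. Without DMSO replicate 1, 154 of the ZNF genes were lower and 32 higher, but this fit called 23.5% of all genes lower and 22.5% higher, and the median of the ZNF genes minus that of all genes moved only from -0.31 to -0.36. The main test was repeated with alternatives in normalization, tool, filter and design and with each library left out in turn. An offset for transcript length without DMSO replicate 1, chosen after seeing the data, made 20 fits in all. In each fit 81 of the genes were significantly lower and 12 significantly higher. The share of all tested genes called in every fit was not counted, so these 2 numbers are descriptions without a background.

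Because the DMSO level both chose the genes and is part of the contrast, these counts are descriptions, and the choice itself favours genes that stand high in DMSO. Choosing ZNF genes instead by 5 CPM or more in SFN gave 246 genes, of which 63 (25.6%) were lower and 22 (8.94%) higher, where 11.8% of the 9784 genes with this SFN level were lower and 9.87% higher. Their median log2 fold change was -0.070 relative to all genes, and without DMSO replicate 1 it was -0.14, with 90 lower and 38 higher. Of these 246, 18 fell and 8 rose significantly by more than 2-fold, against 273 and 182 of the 9784. All SFN values were below all DMSO values for 49 of the 246 and above them for 21, against 914 and 973 of the 9784. Within the 316, 36 of the 54 falls over 2-fold were among the 77 genes under 5 CPM in SFN. With a mean of 5 CPM or more over all 10 libraries the median of 284 genes was -0.21 relative to all genes, and with 10 CPM or more in DMSO 62 of 189 genes were lower and the median was -0.20. Within the 316, 55 of the 127 genes from 5 to 10 CPM in DMSO were lower, 32 of 96 from 10 to 20 CPM, 25 of 72 from 20 to 50 CPM and 5 of 21 above 50 CPM. The 121 testable ZNF genes under the limit had 28 lower and 8 higher, and 52 lower and 10 higher without DMSO replicate 1.

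**Figure D2:**
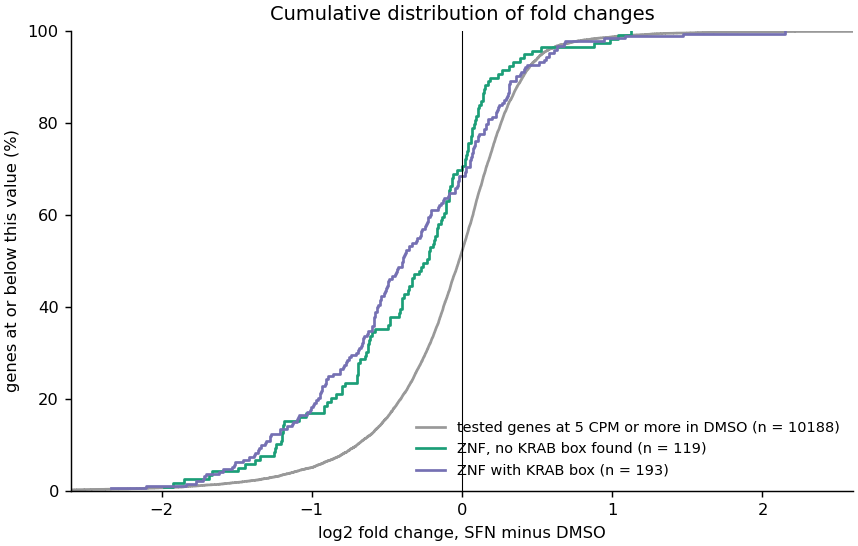
The curves give the percentage of genes at or below each log2 fold change (SFN minus DMSO) for ZNF genes with a KRAB box (n = 193), ZNF genes without (n = 119) and all 10188 tested genes of 5 CPM or more in DMSO. Both ZNF curves lie above the grey curve over most of the negative range, with medians of -0.39 and -0.24 against -0.020.

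The deepest fall was that of ZNF141 (ENSG00000131127, chr4:337814-384868, plus strand), a KRAB protein in which 10 fingers were found. CPM scaled by the trimmed mean of M-values (TMM), the unit of all gene values from here on, were 5.67, 13.7, 12.2, 12.3 and 14.5 in the 5 DMSO replicates and 2.56, 0.863, 2.09, 2.16 and 3.74 in SFN. DMSO replicate 1 was the lowest of its group, and even so no SFN value reached it. The mean fell from 11.7 ± 3.49 CPM (SD, n = 5) to 2.28 ± 1.03 CPM, a log2 fold change of -2.34 with a standard error of 0.33 (adjusted p = 0.00038 in the quasi-likelihood test of edgeR), and -2.51 without DMSO replicate 1.

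ZNF891 (ENSG00000214029, chr12:133104779-133130274, minus strand) is a KRAB gene with a much tighter spread. It had 6.66, 7.47, 7.77, 7.29 and 7.34 CPM in DMSO and 1.25, 1.64, 1.86, 1.28 and 2.47 CPM in SFN. The groups lay far apart, and the log2 fold change was -2.10 (standard error 0.20, adjusted p = 1.9e-05 by edgeR). Its 3′ end is overlapped on the opposite strand by ZNF140, which was also lower (log2 fold change -0.79), and without a stated strand setting the reads of such genes cannot be told apart.

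ZNF239 (ENSG00000196793, chr10:43556344-43574618, minus strand), also known as MOK2, has no KRAB box and binds both DNA and RNA. Its values were 7.54, 6.33, 7.66, 7.29 and 7.16 CPM in DMSO and 1.91, 3.02, 1.71, 1.35 and 1.55 CPM in SFN, so that the highest SFN replicate was below the lowest in DMSO. The log2 fold change was -1.92 (standard error 0.21, adjusted p = 5.4e-05 by edgeR), and leaving out DMSO replicate 1 left it at -1.92.

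The other genes of the same rule (adjusted p under 0.05, no overlap between groups, the 12 most negative fold changes) mixed KRAB proteins with others. ZNF696 (-1.98) and ZNF70 (-1.85) have fingers but no KRAB box, and ZNF814 (-1.84), ZNF552 (-1.77), ZNF215 (-1.72), ZNF813 (-1.72) and ZNF287 (-1.70) are KRAB genes. ZNF215 lies in the imprinted region of chromosome 11p15. ZNF365 (-1.69), which is known for a role in genome stability, had no finger that the search found and fell from 8.60 ± 1.52 to 2.65 ± 0.591 CPM (SD, n = 5). In ZNF696, ZNF70, ZNF287 and ZNF365 the adjusted p ranged from 2.5e-05 to 0.00013 by edgeR, and in ZNF814, ZNF552, ZNF215 and ZNF813 from 0.00024 to 0.0023.

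ZNF581 is the exception in this group. Its DMSO values were 17.1, 4.24, 5.65, 3.8 and 4.03 CPM, with replicate 1 far above the rest, and its SFN values were 2.38, 2.93, 2.16, 1.75 and 1.69 CPM. The log2 fold change was -1.67 (standard error 0.43, adjusted p = 0.016 by edgeR) with all libraries and -1.03 (adjusted p = 0.0011) without DMSO replicate 1, and by limma-voom the adjusted p was 0.070. The mean DMSO level that put it above the limit of 5 CPM also rests on that library.

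Of the few ZNF genes that rose, ZNF419 (ENSG00000105136, chr19:57487711-57496098, plus strand) stood out. This KRAB gene, known as the source of a minor histocompatibility antigen, had 5.11, 6.38, 6.93, 6.63 and 6.81 CPM in DMSO and 25.8, 25.2, 28.3, 28.1 and 34.1 CPM in SFN. The lowest SFN replicate was far above the highest in DMSO, and the log2 fold change was 2.15 (standard error 0.13, adjusted p = 8.7e-07 by edgeR). The last 500 bases of its transcript share stretches of 50 bases with another gene, at most 10% of those searched.

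ZNF227 (ENSG00000131115, chr19:44207547-44237268, plus strand), another KRAB gene, came next. It had 10.2, 13.3, 11.5, 11.8 and 13.3 CPM in DMSO and 33.6, 31.9, 29.0, 34.2 and 37.8 CPM in SFN. The groups did not overlap, and the log2 fold change was 1.47 (standard error 0.12, adjusted p = 5.8e-06 by edgeR). ZNF235 overlaps its 3′ end on the opposite strand.

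ZNF473 (chr19:50025714-50053414), also called ZFP100, works in the 3′ end processing of histone pre-mRNA as part of the U7 snRNP pathway. It rose from 6.04, 13, 11.2, 12.5 and 10.4 CPM in DMSO to 19.9, 25.4, 25.2, 21.7 and 23.9 CPM in SFN. DMSO replicate 1 was again the lowest, and the log2 fold change was 1.12 (adjusted p = 0.0010 by edgeR) with it and 0.97 without.

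ZNF143 (chr11:9460319-9528524) is an activator that binds the promoters of snRNA genes and of many protein-coding genes. It had 12.2, 21.1, 20.1, 21.7 and 21.2 CPM in DMSO and 38, 34.8, 35.4, 33.5 and 35.3 CPM in SFN. All SFN replicates were above all of DMSO, by a log2 fold change of 0.88 (standard error 0.15, adjusted p = 0.0014 by edgeR).

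ZNF654 (1.04), ZNF394 (0.99), ZNF862 (0.95) and ZNF337 (0.69) were the other genes of this group. Their adjusted p ranged from 0.00064 to 0.012 by edgeR, and in each of them all SFN replicates were above all DMSO replicates. DMSO replicate 1 was the lowest of its group for ZNF654, ZNF862 and ZNF337 and the highest for ZNF394. With library size alone as the scale, ZNF337 missed the threshold (adjusted p = 0.059). The 9 higher genes not covered by this rule had smaller rises or groups that overlapped. Among these ZNF773 was chosen after its values were seen, because it is the neighbour of ZNF419 and had a log2 fold change of 1.08 (adjusted p = 0.0095 by edgeR).

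**Figure D3:**
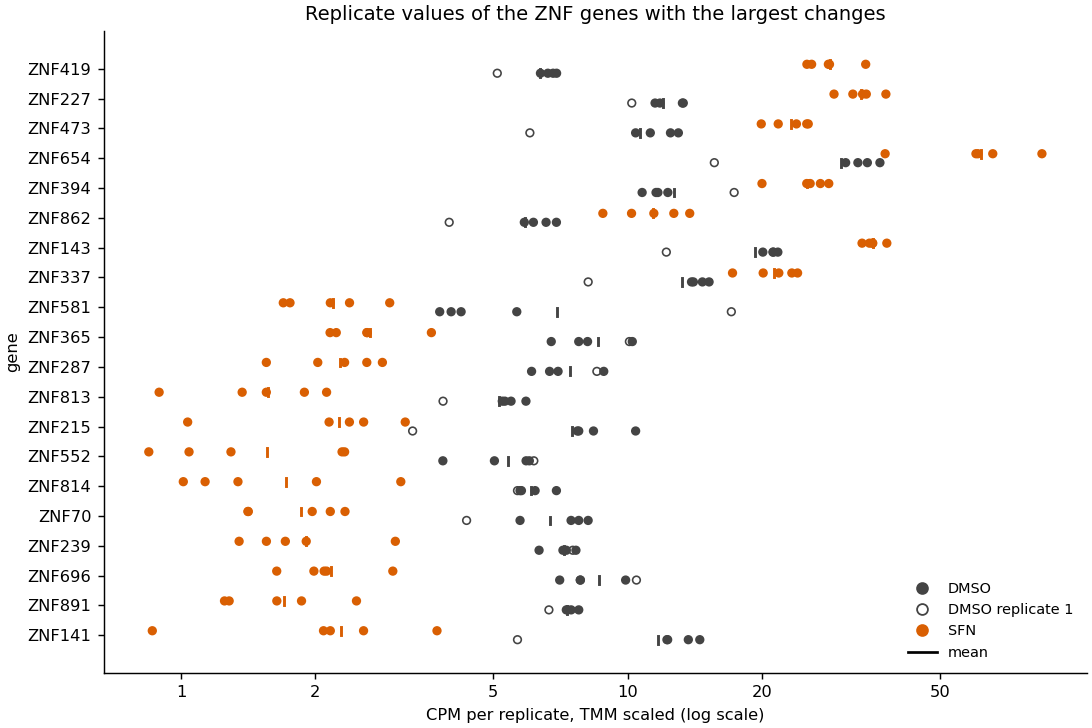
TMM-scaled CPM of each replicate on a log axis for the 8 genes with the largest rise and the 12 with the largest fall among significant genes without overlap between groups, with DMSO in grey (replicate 1 as an open circle), SFN in orange and the mean as a bar. ZNF581 is the gene in which DMSO replicate 1 (17.1 CPM) pulls the mean, and in ZNF141 the same library is the lowest of its group at 5.67 CPM.

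The promoters of ZNF141 and ZNF891, which had the most negative fold changes, and of ZNF419 and ZNF227, which had the most positive, are shown so that their sequences can be compared. Each is taken from the 120 bases just before the annotated start of the gene in RefSeq (GRCh38.p14), without bases that lie in a GENCODE exon (39 in ZNF419 and 4 in ZNF227), written 5′ to 3′ on the strand of the gene, and capitals mark the CCAAT box, read as CCAAT or, on the other strand, ATTGG. For ZNF419 and ZNF227 the RefSeq start lies inside the GENCODE gene given above.
ZNF141 (chr4:337694-337813): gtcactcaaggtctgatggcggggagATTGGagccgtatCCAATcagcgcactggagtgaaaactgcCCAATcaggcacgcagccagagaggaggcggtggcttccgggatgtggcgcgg
ZNF891 (chr12:133130275-133130394): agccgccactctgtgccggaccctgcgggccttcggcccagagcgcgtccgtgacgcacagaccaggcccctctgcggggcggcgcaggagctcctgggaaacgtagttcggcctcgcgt
ZNF419 (chr19:57487630-57487710): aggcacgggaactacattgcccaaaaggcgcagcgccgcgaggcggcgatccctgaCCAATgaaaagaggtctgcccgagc
ZNF227 (chr19:44212412-44212527): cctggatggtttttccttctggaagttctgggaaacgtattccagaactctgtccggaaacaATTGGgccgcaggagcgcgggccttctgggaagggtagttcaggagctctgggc
ZNF141, which fell, holds 3 of these boxes, ZNF891, which also fell, holds 0, and ZNF419 and ZNF227, which rose, hold 1 each.

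Over the 273 of 316 genes with a promoter entry (250 bases before the start and 50 after), 44.7% held CCAAT on either strand, against 35.7% of all 27305 promoters of the same length. The share was 47 of 103 (45.6%) among the lower genes, 11 of 14 (78.6%) among the higher genes and 41% among those not significant. For the antioxidant response element TGACNNNGC, the core bound by NRF2, the share was 13.2% against 13.6% of all promoters. It was in 18 of 103 lower genes (17.5%), 2 of 14 higher genes (14.3%) and 10.3% of those not significant. CACGTG, the E-box of factors such as MYC and TFEB, was in 5.49% against 7.43%, the heat shock element GAANNTTC in 6.59% against 6.87%, and TTGCATCA, a composite site of C/EBP and ATF factors, in 0.366% against 0.923%. None of these letter strings contains another, all were read on both strands, and a match is a description and not a binding site.

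Of the 5 ZNF genes with the highest DMSO CPM, only ZNF638 changed significantly with all libraries. CPM are not divided by transcript length, so their order is one of counts and not of transcript number. ZNF638 (ENSG00000075292, chr2:71276561-71435069, plus strand), which works with the HUSH complex in silencing unintegrated retroviral DNA, had 196, 204, 229, 239 and 210 CPM in DMSO and 134, 142, 131, 134 and 158 CPM in SFN. It fell without overlap, by a log2 fold change of -0.62 (standard error 0.10, adjusted p = 0.00085 by edgeR).

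ZNF326 is a subunit of the DBIRD complex, which links RNA polymerase II elongation to splicing. It had 192, 106, 105, 110 and 105 CPM in DMSO and 131, 121, 125, 124 and 123 CPM in SFN, so every SFN replicate was above DMSO replicates 2 to 5 and below replicate 1. The log2 fold change was 0.017 (adjusted p = 0.96 by edgeR) with all libraries and 0.23 (adjusted p = 0.016) without DMSO replicate 1. ZNF146 (log2 fold change 0.040), a protein made almost only of fingers, ZNF664 (0.020) and ZNF106 (-0.16) were not significant, with adjusted p from 0.40 to 0.96. For ZNF664 DMSO replicate 1 was the lowest by far (65.3 CPM against 136 to 148 CPM), and the sign turned without it (-0.15, adjusted p = 0.25).

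Of 10 ZNF genes on a hand-written list for RNA processing and translation, 3 were lower (30%, against 13.9% of all genes tested) and 0 higher. They were ZNF638, ZNF346 (-0.69), which binds double-stranded RNA, and ZNF598 (-0.35), the ubiquitin ligase that marks collided ribosomes. ZNF598 had 55.4, 66.7, 63.3, 61.1 and 54.8 CPM in DMSO and 47.9, 44.2, 44.8, 53 and 46 CPM in SFN, without overlap (adjusted p = 0.025 by edgeR), but its call was lost when any of DMSO replicates 2, 3 and 4 or SFN replicates 1, 2 and 3 was left out. ZNF207, a spindle assembly protein, and ZNF622, which helps mature the large ribosomal subunit, had log2 fold changes of -0.12 and -0.19 and overlapping groups, and in both DMSO replicate 1 was the highest DMSO value (132 and 168 CPM). The median of the list relative to all genes was -0.15 with all libraries and 0.010, of the opposite sign, without DMSO replicate 1, when 3 were lower and 2 higher. ZNF385A, on the same list but under the limit of 5 CPM, was higher (1.10, adjusted p = 0.012).

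Regulators of chromatin and transcription were mixed. On a list of 22 such ZNF genes, 6 were lower (27.3%, against 13.9% of all genes tested) and 2, ZNF143 and ZNF263, were higher. The median relative to all genes was -0.091 with all libraries and -0.28 without DMSO replicate 1. The rule named the most counted of them. ZNF24 (-0.060), ZNF644 (-0.084), a partner of the histone methyltransferases G9a and GLP, ZNF281 (-0.22), ZNF148 (-0.10), which is the factor ZBP-89, and ZNF217 (0.14), an oncogene product, were not significant, with adjusted p from 0.29 to 0.85 by edgeR. ZNF131, a POZ domain protein, fell from 57.7 ± 5.42 to 43.8 ± 2.90 CPM (SD, n = 5), with a log2 fold change of -0.40 (adjusted p = 0.014, and 0.052 with no filter on low counts). ZNF827 (-1.38), ZNF503 (-1.25), ZNF462 (-1.21), ZNF274 (-0.89) and ZNF292 (-0.69) were the other lower genes of this list. These 5 are named to account for the count of the list.

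Among ZNF genes on a hand-written list of KRAB proteins that bind repeats or imprinted loci, 9 of 14 were lower (64.3%) and 0 higher. The median was -0.68 relative to all genes, and 11 were lower without DMSO replicate 1. Of all genes tested 13.9% were lower, and 23.5% without that library. Of the 193 ZNF genes with a KRAB box found, 37.3% were lower. Under the limit of 5 CPM, 3 more genes of the list were tested, of which ZNF425 was higher (1.18, adjusted p = 0.0022 by edgeR) and ZNF429 and ZNF808 were not significant. ZNF445, known for keeping imprints, was among the 9. It had 18.7, 40.7, 39.4, 44.6 and 39.1 CPM in DMSO and 11.2, 10.2, 12.3, 18.6 and 22.9 CPM in SFN, so that DMSO replicate 1 fell within the SFN range. The log2 fold change was -1.28 (standard error 0.27, adjusted p = 0.0053 by edgeR) and -1.45 without that library.

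ZNF248 (-1.13) and ZNF33A (-0.74) were also lower, each without overlap between groups. ZNF33A had 50.8, 44.1, 40.4, 48.3 and 43 CPM in DMSO and 27.1, 25.6, 25.3, 25.4 and 32.1 CPM in SFN (adjusted p = 0.00055 by edgeR). ZNF587, which binds HERV-K elements, fell from 24.8 ± 3.41 to 15.6 ± 3.61 CPM (SD, n = 5, log2 fold change -0.67, adjusted p = 0.013), and 12% of the windows searched in its last 500 bases are shared with other transcripts, chiefly ZNF417. ZNF141, ZNF841, ZNF765, ZNF417 and ZNF611 complete the 9. ZNF91, known for repressing SVA elements, had 30, 22.8, 18.2, 26.5 and 28.2 CPM in DMSO and 21.2, 17.3, 22.8, 23.0 and 22.7 CPM in SFN. Its groups overlapped (log2 fold change -0.23, adjusted p = 0.30), as did those of ZNF317 (0.078, adjusted p = 0.86), in which DMSO replicate 1, at 8.97 CPM, was below all other libraries.

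The genes for partners of the KRAB proteins were counted next. Of 26 genes for co-repressors, heterochromatin proteins and the HUSH complex, 4 (15.4%) were lower, a share near that of all genes of 5 CPM or more in DMSO (14.8%), and 0 were higher. Their median was -0.037 relative to all genes, and without DMSO replicate 1 6 were lower and 4 higher with a median of -0.059. TRIM28, the direct partner of KRAB, had 189 ± 13.3 CPM in DMSO and 183 ± 20.8 CPM in SFN (SD, n = 5), a log2 fold change of -0.048 (standard error 0.11, adjusted p = 0.80 by edgeR). The lower genes were UHRF1 (-0.78) and DNMT1 (-0.60), which maintain DNA methylation, the methyltransferase SETDB1 (-0.75) and MORC2 (-0.66), an ATPase that works with HUSH. SETDB1 had 15.4, 23.7, 25.4, 27.2 and 20.6 CPM in DMSO and 12.6, 15.1, 10.5, 13.4 and 15.4 CPM in SFN, with no overlap. For DNMT1 the highest DMSO value was that of replicate 1 (553 CPM against 334 to 383 CPM), and for MORC2 the lowest was (24.5 CPM against 46.8 to 55.5 CPM). With the offset for transcript length DNMT1 missed the threshold (adjusted p = 0.051). The call for MORC2 was lost when any library other than DMSO replicate 1 or SFN replicate 5 was left out.

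Zinc finger genes of related families, named ZKSCAN, ZSCAN, ZFP and a few others, were taken from another hand-written list. Of the 40 in the file 35 were tested. Of these 16 were lower (45.7%, against 13.9% of all genes tested) and 1, ZKSCAN5 (0.77), was higher, with a median of -0.42 relative to all genes. Without DMSO replicate 1, 22 were lower and 1 higher and the median was -0.63, in a fit that called 23.5% of all genes lower.

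The share of lower genes was close with and without a KRAB box. Of 312 ZNF genes with a protein, 193 had a KRAB box by a profile search and 119 did not. With a KRAB box 72 were lower (37.3%) and 12 higher, and the median was -0.37 relative to all genes, and without it 43 were lower (36.1%) and 5 higher, and the median was -0.21. ZNF394 and ZNF473, among the 5, are known to carry a divergent KRAB domain that the search did not find. Without DMSO replicate 1 the genes with a KRAB box had 99 lower and 20 higher and those without had 53 lower and 11 higher. The difference between the medians, -0.16, turned to 0.10 when the genes were chosen by 5 CPM or more in SFN. The other 4 genes are pseudogenes, of which 2 were lower. The Spearman correlation of the log2 fold change across genes was -0.0024 for the number of fingers (n = 312), -0.064 for transcript length (n = 316), -0.078 for the length of the 3′ untranslated region (n = 312) and 0.081 for GC content (n = 316). These are descriptions, since the genes share the 10 libraries and are not independent replicates.

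Lower genes were found on chromosome 19 and elsewhere. Chromosome 19 held 141 of the 316 genes, of which 52 were lower (36.9%) and 8 higher, with a median of -0.33 relative to all genes. The 175 on other chromosomes had 65 lower (37.1%) and 9 higher and a median of -0.29. Of all genes tested 13.9% were lower. Without DMSO replicate 1 the higher genes numbered 17 on chromosome 19 and 15 elsewhere. Genes were grouped into clusters where gaps did not exceed 1 Mb. The cluster at the end of the long arm (chr19:55576774-58475436) had 42 genes, 19 lower and 2 higher, with a median of -0.51 relative to all genes, and that at chr19:19668796-21852125 had 13 genes, 6 lower and 1 higher, with a median of -0.54. By contrast, the cluster at chr19:8806170-9675100 had 3 lower and 0 higher of 9 genes and a median of 0.11, and that at chr19:11559374-12633840 had 1 lower and 2 higher of 8 and a median of 0.066.

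**Figure D4:**
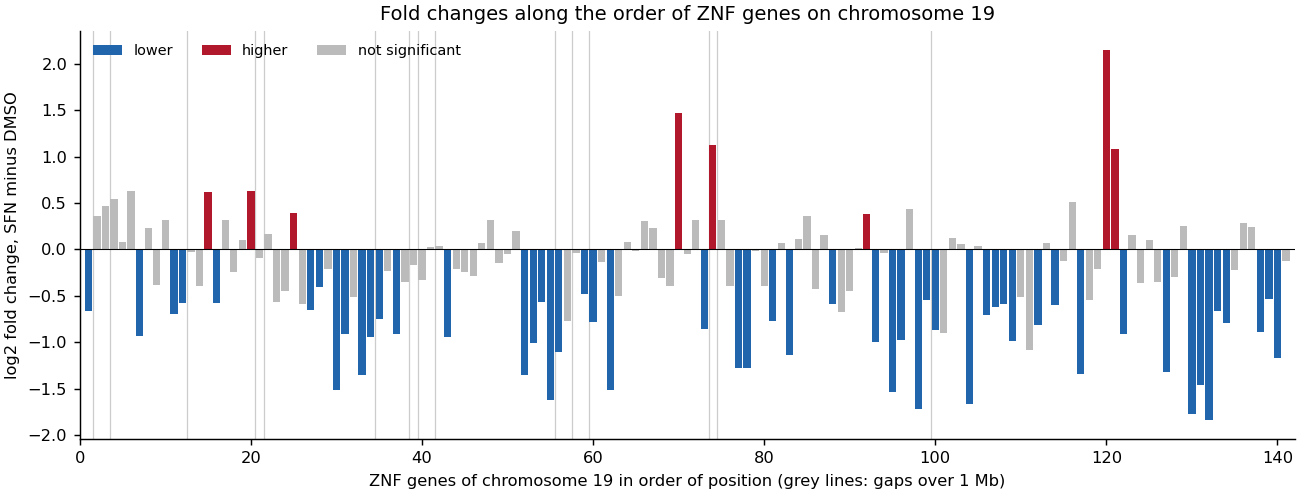
Bars give the log2 fold change (SFN minus DMSO) of the 141 ZNF genes of chromosome 19 in order of position, coloured by significance, with grey lines at gaps over 1 Mb. The 52 lower genes are spread over the clusters, and ZNF419 (2.15) and ZNF773 (1.08) stand side by side among lower genes in the last cluster.

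Neighbouring genes did not always share a direction. There were 140 pairs of neighbouring ZNF genes within 100 kb of each other on any chromosome. Both were lower in 21 pairs, both higher in 1, 1 lower and 1 higher in 3, and neither was significant in 51. In 55 pairs 1 was lower and 1 not significant, and in 9 pairs 1 was higher and 1 not significant. As 37% of the 316 genes were lower, some pairs would both be lower without any relation between neighbours, and such a relation was not tested. ZNF419 and ZNF773, with 3816 bases between them, are the pair in which both rose, and on the far side of ZNF773 lies ZNF549 (-0.91), which fell. In the other pairs of opposite direction, ZNF441 (0.62) lies beside ZNF440 (-0.58), and ZNF160 (0.39) beside ZNF347 (-0.99). ZNF552, ZNF587B, ZNF814, ZNF587 and ZNF417 form a run of lower genes, in which ZNF814 overlaps ZNF587 on the opposite strand. These neighbours were named after their values were seen.

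In sum over all 316 genes, DMSO libraries had 5957, 6171, 6234, 6457 and 6356 CPM and SFN libraries 5352, 4899, 5295, 5529 and 5986 CPM. SFN replicate 5 was above DMSO replicate 1, so the groups overlapped. The means were 6235 ± 191 and 5412 ± 395 CPM (SD, n = 5), and SFN was at 86.8% of DMSO. Genes with a KRAB box summed to 2442 ± 170 CPM in DMSO and 2064 ± 176 CPM in SFN and overlapped in the same way, while genes without it summed to 3685 ± 61.6 and 3243 ± 216 CPM, with the highest SFN value (3569 CPM) just under the lowest in DMSO (3583 CPM). The order of the SFN libraries was shared by many genes, as SFN replicate 2 was the lowest of its group for 153 genes and SFN replicate 5 the highest for 135.

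**Figure D5:**
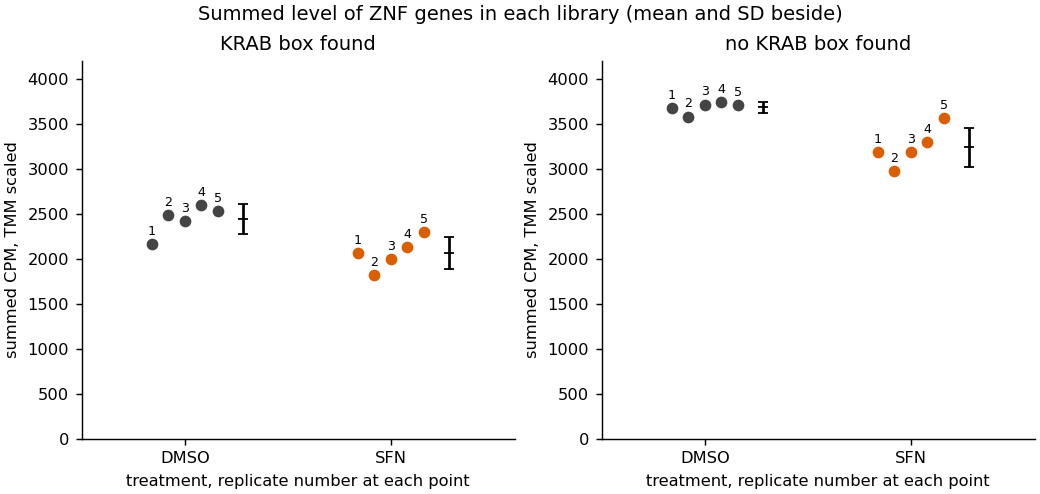
Points give the summed TMM-scaled CPM of ZNF genes with a KRAB box (left) and without (right) in each library, numbered by replicate, with the mean and SD beside them. SFN replicate 5 (2301 CPM) lies above DMSO replicate 1 (2160 CPM) on the left, and the groups just fail to meet on the right.

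ZNF genes are alike in sequence, and reads at their 3′ ends could be assigned to a relative or to an overlapping gene. Of the 316, 255 had no stretch of 50 bases in the last 500 bases of their transcript in common with another gene. Of these 94 were lower (36.9%) and 11 higher, and 125 and 21 without DMSO replicate 1. Another 27 shared more than 10% of such stretches, with 12 lower (44.4%) and 1 higher. Genes on the opposite strand overlapped the 3′ end of 91 ZNF genes, of which 25 were lower (27.5%) and 7 higher, and 36 and 12 without DMSO replicate 1. For comparison, 13.9% of all genes tested were lower and 9.07% higher, and 23.5% and 22.5% without that library. The 154 genes with neither a shared stretch nor an overlapping gene at the 3′ end had 56 lower (36.4%) and 6 higher, and their median was -0.30 relative to all genes. Among them 21 were lower and 0 higher by more than 2-fold, and the highest log2 fold change was 0.95. The genes with the 5 rises over 2-fold are therefore not in this set. Without DMSO replicate 1, 75 of these 154 were lower and 12 higher.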

How the data were processed

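RNA of RPE-1 cells was sequenced in 10 libraries, 5 per treatment. The authors made Lexogen QuantSeq libraries, which read the 3′ ends of transcripts, and used the Bluebee pipeline to align and count reads. What they deposited are raw counts for each Ensembl gene, not normalized, with replicates kept apart. The submitters' processing notes name FastQC, STAR, featureCounts and edgeR and the builds hg38 and GRCh38, with no versions, and the use of strand is not given in the sources used here. The study's own model, limma on voom weights with repeated measures, was not run; limma-voom after quantile normalization came nearest to it.

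The counts of all genes were fitted with edgeR 4.0.16 (filterByExpr, TMM, glmQLFit and glmQLFTest) in R 4.3.3, 5 SFN against 5 DMSO, with Benjamini-Hochberg adjustment over 13378 genes and a threshold of 0.05. Standard errors were derived from the log2 fold change and the F statistic. The alternatives used limma 3.58.1 and DESeq2 1.42.0 as well. The main fit, the replicate block, the offset for transcript length, DESeq2 and limma-voom were checked on simulated counts. The simulation used the same dispersion for all genes and no deviant library, and the other refits were not checked in this way. No pair of replicates was alike within sampling noise, as the chi-square per degree of freedom ranged from 3.70 to 270. Total counts set the precision, and a ZNF gene at the limit of choice had a mean of 86.6 counts in a DMSO library.

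Positions, transcripts and translated canonical proteins were those of GENCODE 44, which held 28145 of the 28380 gene identifiers. C2H2 fingers were found by pattern and KRAB boxes by a profile of 42 residues with a score minimum of 20, which 7 of 14757 unrelated proteins reached. A divergent KRAB box can fall under it. A search of RefSeq proteins had been planned, and GENCODE proteins took its place. Promoters are those of RefSeq.

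The genes, lists and tests were chosen with earlier results of these data known, and no gene list was tested as a set. The genes named are the 5 with the highest DMSO CPM, the 12 largest falls and 8 largest rises among significant genes without overlap between groups, up to 6 of the most counted genes of each hand-written list, the 3 on either side of the limit and the co-repressors past the threshold. Any other gene is named to account for a count or after its values were seen. The authors' own comparisons were not used.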

Additional observations from a re-analysis of the deposited data

Results flagged for a closer look

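Among 116 groups of 5 replicates that were examined (the CPM of the named genes in each treatment and the summary values of the libraries), 25 had a replicate far from the other 4, meaning that its gap to the nearest of them made up more than 0.71 of the whole range. Among independent groups chance would set apart about 1 in 20, here 6. These groups share the same libraries and are not independent, so 25 cannot be judged against that number. DMSO replicate 1 was the replicate apart in 22 of the 25, SFN replicate 5 in 2 and SFN replicate 2 in 1.

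DMSO replicate 1 was apart in 18 of the genes named. Among lower and higher genes the gap as a share of the range was 0.744 for ZNF141, 0.860 for ZNF581, 0.718 for ZNF654, 0.767 for ZNF394, 0.830 for ZNF143, 0.814 for ZNF337 and 0.785 for ZNF445. For genes that were not significant it was 0.858 for ZNF664, 0.943 for ZNF326, 0.790 for ZNF622, 0.775 for ZNF24, 0.841 for ZNF644, 0.755 for ZNF281, 0.874 for ZNF148, 0.803 for ZNF317 and 0.796 for ZNF470. For the co-repressor genes it was 0.777 for DNMT1 and 0.718 for MORC2. This library was also apart in its TMM factor (0.907), its slope on transcript length (0.855), its mean Spearman correlation with its group (0.933) and the median log2 level of the 316 ZNF genes against the DMSO mean (0.818), which was -0.23 in it and 0.031 to 0.090 in the other DMSO libraries.

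In SFN, replicate 5 was apart for ZNF281 (0.714) and ZNF33A (0.735), in both as the highest, and replicate 2 for ZNF317 (0.809), as the lowest.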

How the results depend on the processing

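Whether the replicate numbers pair the libraries could not be settled from the counts. Deviations from the group means of same-numbered libraries correlated at 0.039, -0.27, -0.060, 0.031 and 0.48. Only for replicate 5 was the same-numbered SFN library the best match. The labels state no pairing, while the study's own model allowed for repeated measures. With the replicate block, 105 ZNF genes were lower and 13 higher, and the median relative to all genes was -0.34. The number of lower genes stayed within 1.5 times of 117 in each refit of the 316 genes, from 87 by limma-voom to 154 without DMSO replicate 1, and the median stayed between -0.23 and -0.36. The number of higher genes was 29 by limma-voom, 31 with an offset for transcript length and 57 with that offset and without DMSO replicate 1, a combination chosen after seeing the data, and it ranged from 14 to 32 when each library was left out. Other rules of choice also changed the size of the set, so their counts cannot be set directly against 117 of 316. The medians given here moved further, and the number of higher genes ranged from 12 to 22. With 10 CPM or more in DMSO 62 of 189 genes were lower and the median was -0.20. With 5 CPM or more in SFN 63 of 246 were lower, the median was -0.070 and the KRAB difference turned to 0.10. With 5 CPM or more over all libraries the median of 284 genes was -0.21. The cause of the other changes was not tested.

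Of 950 values for 50 named genes, 881 kept direction and call, 30 lost the call, 6 gained it with the same sign and 33 changed sign. Lost calls fell on MORC2 and ZNF821 (9 each), ZNF598 (8), and ZNF581, ZNF337, ZNF131 and DNMT1 (1 each). Each gene that changed sign was not significant with all libraries. With library size alone as the scale, the log2 fold change was -0.037 for ZNF146, -0.087 for ZNF664, -0.040 for ZNF326, -0.034 for ZNF317 and -0.0065 for ZNF81. With the upper quartile it was -0.013 for ZNF664 and -0.020 for ZNF326, and by limma-voom -0.035 for ZNF146 and -0.024 for ZNF664. With the length offset it was 0.027 for ZNF207, 0.037 for ZNF24, 0.011 for ZNF644 and 0.054 for ZNF148. With the offset and without DMSO replicate 1, ZNF106 (0.19, adjusted p = 0.040 by edgeR) and ZNF207 (0.34, adjusted p = 0.036) changed sign and became significant. In that fit the log2 fold change was -0.035 for ZNF664, 0.035 for ZNF24, 0.048 for ZNF281, 0.030 for ZNF148, 0.00070 for ZNF91 and -0.014 for ZNF317.
When each library was left out, it ranged from -0.15 to 0.097 for ZNF664, from -0.037 to 0.23 for ZNF326, from -0.29 to 0.055 for ZNF622, from -0.18 to 0.061 for ZNF24, from -0.12 to 0.16 for ZNF317 and from -0.18 to 0.26 for ZNF81.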
